A study of Mus musculus with 12 samples.

Results

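The genes described here are those whose expression in vehicle-treated C2C12 cells was high 24 h after the start of differentiation and lower both before it and at 48 h. C2C12 is an immortalized mouse myoblast line. A gene was taken if its FPKM (a fragment count scaled by transcript length and library size) was at least 1 in both 24 h DMSO libraries, and if the lower of those 2 values was at least 1.5 times the highest value in the other 4 DMSO libraries. A gene missing from a library's table counted as 0. Of 16288 genes listed in any library, 10808 reached the FPKM minimum and 127 met the whole rule, 126 of them protein-coding. The ratio that chose them ran from 1.5 to 4.79 with a median of 1.73; 41 of the 127 had a ratio of at least 2 and 8 a ratio of at least 3.

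The 12 libraries form 6 groups of 2, described in the labels as biological duplicates. GM cells were proliferating in medium with 10% fetal bovine serum, kept at or below 70% confluency. The 24 h and 48 h cells had been allowed to reach 90% confluency and were then moved to medium with 2% horse serum and 2 ug/ml insulin. At each stage cells received either DMSO, the vehicle, or 50 uM PFI-3, a small molecule that binds the bromodomains of the SWI/SNF ATPases BRG1 and BRM and of polybromo-1. Treatment started 12 h before harvest (GM) or as a pretreatment of 12 h, and was renewed every 24 h in differentiation medium. No separate donors or animals are involved, so the p-values below measure the spread between 2 cultures of one line.

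Total expected counts were 12576374 to 13658352 per library. The summed FPKM of 9 myoblast markers was 311 to 461 in GM and 748 or more in every differentiating library. Genes that rise with differentiation weigh on this sum, such as Des, at 127 and 146 FPKM in GM and 680 and 661 at 48 h in DMSO. Myf5 went the other way, with 27.4 and 30.2 FPKM in GM and 21.4 and 19.4 at 24 h in DMSO. At 24 h in PFI-3 Myf5 read 24.0 and 26.4 FPKM, so the myoblast sum does not speak for each marker. The summed FPKM of 7 myotube markers was at most 8.68 in GM, 1787 to 1796 at 24 h in DMSO and 769 to 777 at 24 h in PFI-3, and it was 11730 to 11793 and 8085 to 8210 at 48 h. Of 8 fibroblast markers 7 were in the files, and their sum was 89.2 to 137 in GM, 433 to 442 at 24 h and 376 to 381 at 48 h in DMSO, and 52.1 to 72.8, 221 to 229 and 222 to 227 in PFI-3. It was thus highest at 24 h in DMSO and lower with PFI-3 at every stage, and its part in the values of the genes described below was not tested. Most of this sum came from the collagen gene Col1a2, at 362 and 355 FPKM at 24 h in DMSO and 206 and 196 FPKM in PFI-3, while Thy1 and Lum stayed at or under 0.16 FPKM in all 12 libraries. Col1a1 was also lower at 24 h, 11.2 and 10.8 FPKM in PFI-3 against 68.1 and 67.1 in DMSO. Other listed markers went the other way. Pdgfra read 4.16 and 4.05 FPKM at 24 h in PFI-3 against 1.88 and 1.69 in DMSO. Dcn read 12.4 and 10.6 FPKM at 48 h in PFI-3 against 7.95 and 7.81 in DMSO. The sum thus does not speak for the whole list. Adipocyte, osteoblast and chondrocyte markers summed to 5.87 to 25.4 over all libraries, and endothelial, neuron or glia and macrophage markers to at most 8.21. None of the 127 genes is on a marker list. In such bulk RNA, fewer cells of a type and less RNA per cell cannot be told apart.

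The leading group among the 127 genes was the cholesterol pathway. Cells make cholesterol from acetyl-CoA through mevalonate, isoprenoid diphosphates, squalene and lanosterol. The genes of this route are targets of the transcription factor SREBP2, which SCAP and INSIG proteins hold in the endoplasmic reticulum while sterols are plentiful and which is cleaved and released to the nucleus when they are scarce. SREBP1 acts in the same way on fatty acid synthesis and desaturation. In myoblasts, cholesterol is a constituent of the membranes that fuse as myotubes form.

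Of 24 genes on a list for cholesterol synthesis, uptake and its control, 21 were among the 127. The 17 of them described singly are Hmgcs1, Mvk, Pmvk, Mvd, Idi1, Fdps, Fdft1, Sqle, Lss, Cyp51, Tm7sf2, Msmo1, Nsdhl, Hsd17b7, Sc5d, Insig1 and Stard4. Of 13 listed genes for fatty acid synthesis present in the files, 5 were: Acaca, Acly, Elovl6, Fads1 and Fads2. Only 3 members came from the other 28 lists examined, namely Sfrp2 (Wnt pathway), Cxcl12 (chemokines) and Col12a1 (collagens). None came from the lists for the contractile apparatus, myogenic regulators, cell cycle phases, p53 targets or the ATF4 response. Of the 20 members with the highest FPKM at 24 h in DMSO, 13 were on a lipid list. For comparison, 127 of the 10808 genes that reached the FPKM minimum were members, and 26 of the 127 were on a lipid list. The lists were written with earlier results of these data known.

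The DNA just upstream of 5 of these genes is shown because the pathway's members are known to be controlled through their proximal promoters. They are the 5 cholesterol list members with the highest 24 h level in DMSO that matched RefSeq's promoter windows, which run from 250 bases before to 50 bases after each gene's start in GRCm38.p6. The stretches are Hmgcs1 at chr13:119690101-119690350 on the plus strand, Msmo1 at chr8:64733579-64733828 on the minus strand, Idi1 at chr13:8885356-8885605 on the plus strand, Nsdhl at chrX:72918271-72918520 on the plus strand and Insig1 at chr5:28071162-28071411 on the plus strand. Each is the 250 bases upstream, read 5′ to 3′ in the direction of the gene. Capitals mark CCAAT or its reverse complement ATTGG, the box bound by NF-Y, and, in Hmgcs1, a match to the sterol element TCACNCCAC.
Hmgcs1: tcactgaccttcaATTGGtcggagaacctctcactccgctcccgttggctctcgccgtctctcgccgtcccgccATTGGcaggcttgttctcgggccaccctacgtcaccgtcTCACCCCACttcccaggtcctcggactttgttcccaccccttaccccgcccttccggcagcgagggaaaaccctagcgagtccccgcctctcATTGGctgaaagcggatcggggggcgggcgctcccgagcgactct
Msmo1: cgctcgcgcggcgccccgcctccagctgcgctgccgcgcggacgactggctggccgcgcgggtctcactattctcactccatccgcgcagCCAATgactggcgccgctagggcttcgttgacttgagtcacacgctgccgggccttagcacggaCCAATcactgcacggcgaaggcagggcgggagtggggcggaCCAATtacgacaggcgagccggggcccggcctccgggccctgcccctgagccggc
Idi1: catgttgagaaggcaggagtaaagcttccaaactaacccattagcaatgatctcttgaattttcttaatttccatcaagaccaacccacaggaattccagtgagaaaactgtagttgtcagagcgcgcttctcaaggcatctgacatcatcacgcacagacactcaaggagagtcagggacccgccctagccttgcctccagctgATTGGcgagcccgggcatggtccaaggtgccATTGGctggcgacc
Nsdhl: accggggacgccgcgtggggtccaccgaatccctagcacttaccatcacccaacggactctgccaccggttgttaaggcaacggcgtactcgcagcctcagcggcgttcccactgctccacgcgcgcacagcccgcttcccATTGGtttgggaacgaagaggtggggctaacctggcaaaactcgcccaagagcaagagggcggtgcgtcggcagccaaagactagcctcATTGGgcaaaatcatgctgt
Insig1: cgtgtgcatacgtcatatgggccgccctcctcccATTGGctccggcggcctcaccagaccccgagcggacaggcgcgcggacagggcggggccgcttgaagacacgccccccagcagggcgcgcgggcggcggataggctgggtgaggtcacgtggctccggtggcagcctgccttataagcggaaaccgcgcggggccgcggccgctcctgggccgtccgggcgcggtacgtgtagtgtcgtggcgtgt

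The Hmgcs1 stretch held 3 CCAAT matches, Msmo1 3, Idi1 2, Nsdhl 2 and Insig1 1. The single sterol element of Hmgcs1 began 137 bases before the start, between CCAAT matches at 176 and 45 bases before it, and overlapped neither. Windows matched for 13 of the 21 cholesterol list members, which is too few to give a motif share for the 21, and such a check is void for them. The counts that follow describe the 13 matched genes only and give no result about the 21. Each of those 13 genes had at least 1 CCAAT in a window, searched on both strands (Pmvk has 2 windows, of which 1 held it), a motif found in 43.5% of the 8733 genes with a window that reached the FPKM minimum at 24 h and in 41.1% of all 27025 genes with a window. The sterol element was in 1 of the 13 and in 1.33% of those 8733 genes, the GC box GGGCGG was in 12 and in 71.6%, and TATAAA was in 0 and in 8.14%. Of 78 matched members on neither lipid list, 35 had a CCAAT (44.9%). A match is a run of letters and not evidence of a bound factor. Only runs that fit these letters were counted, so a site spelled otherwise is missed and a low count does not show absence.

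**Figure D1:**
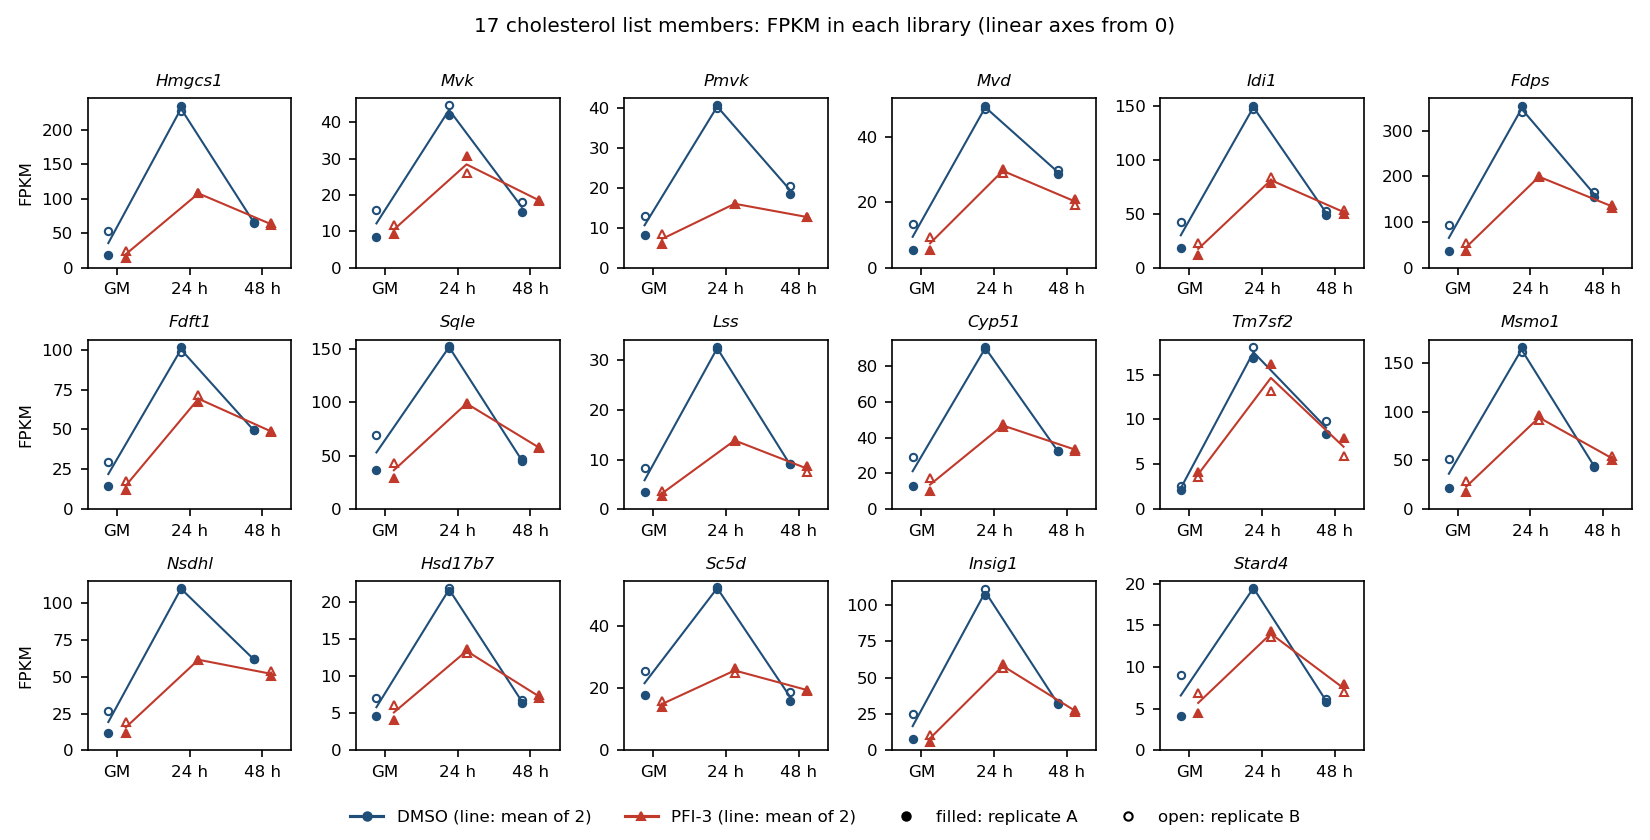
FPKM (linear axis from 0) of 17 cholesterol list members in each of the 12 libraries, with points for single libraries and lines through the means of 2. Every DMSO line peaks at 24 h, which the selection fixes, and at 24 h both PFI-3 points lie below both DMSO points for all 17 genes drawn, as for 29.3% of 11267 expressed genes.

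Hmgcs1, an early enzyme of the pathway that makes HMG-CoA, read 18.7 and 52.5 FPKM in GM, 235 and 227 at 24 h and 65.4 and 66.7 at 48 h in DMSO cells. Its level in PFI-3 cells was 14.5 and 24.4 FPKM in GM, 108 and 108 at 24 h and 61.7 and 64.4 at 48 h. The 24 h peak in PFI-3 cells was thus at 46.7% of the DMSO level, whereas the 48 h levels lay within a few FPKM of each other.

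The enzymes that turn mevalonate into farnesyl diphosphate followed. The kinase Mvk read 42.01 and 44.8 FPKM at 24 h in DMSO and 30.6 and 26.1 FPKM in PFI-3. Pmvk, the next kinase, read 8.16 and 13.04 FPKM in GM, 40.7 and 39.98 at 24 h and 18.4 and 20.5 at 48 h in DMSO, and 6.03 and 8.32 FPKM in GM, 15.9 and 16.04 at 24 h and 12.7 and 12.6 at 48 h in PFI-3. Pmvk kept the smallest share of its DMSO level among the 21, 39.7% at 24 h, and it was at 64.9% at 48 h. The decarboxylase Mvd lay between the kinases in share at 60.4%, with 30.2 and 29.01 FPKM at 24 h in PFI-3. The isomerase Idi1 read 17.9 and 42.1 FPKM in GM, 150.1 and 147 at 24 h and 48.9 and 52.9 at 48 h in DMSO, and 11.6 and 23.1 FPKM in GM, 78.3 and 83.95 at 24 h and 49.4 and 53.8 at 48 h in PFI-3. Fdps, farnesyl diphosphate synthase, had the highest 24 h level of all 127 genes, with 37.2 and 93.02 FPKM in GM, 355 and 341 at 24 h and 155 and 166 at 48 h in DMSO. In PFI-3 cells Fdps read 35.9 and 54.1 FPKM in GM, 200.4 and 198 at 24 h and 131 and 137 at 48 h, lower than DMSO in both libraries at 24 h and at 48 h.

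The squalene and lanosterol steps showed the same order. Fdft1, which joins farnesyl groups to squalene, read 102 and 98.7 FPKM at 24 h in DMSO and 67.05 and 71.6 FPKM in PFI-3. Sqle, the squalene epoxidase and a control point of the route, read 36.96 and 68.97 FPKM in GM, 152 and 151 at 24 h and 44.6 and 46.8 at 48 h in DMSO, and 29.2 and 43.4 FPKM in GM, 98.8 and 98.8 at 24 h and 57.9 and 57 at 48 h in PFI-3. Lss, which closes the rings to lanosterol, had the largest selection ratio of the lipid genes (3.57), and its DMSO values were 3.4 and 8.22 FPKM in GM, 32.2 and 32.7 at 24 h and 9.04 and 9.02 at 48 h. In PFI-3 cells Lss read 2.68 and 3.61 FPKM in GM, 13.8 and 13.96 at 24 h and 8.73 and 7.56 at 48 h, so the 24 h level was 42.7% of DMSO and the 48 h level 90.2%.

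The enzymes that trim lanosterol to cholesterol lay over a wide range of levels. Msmo1, a sterol methyl oxidase, read 21.2 and 51.2 FPKM in GM, 166 and 161 at 24 h and 44.2 and 43.5 at 48 h in DMSO, and 17.7 and 28.4 FPKM in GM, 96.4 and 91.3 at 24 h and 49.8 and 54.7 at 48 h in PFI-3. Cyp51, the lanosterol demethylase, read 90.98 and 89.7 FPKM at 24 h in DMSO and 46.2 and 47.6 FPKM in PFI-3. Nsdhl, a sterol dehydrogenase, read 109.8 and 110.3 FPKM and 61.6 and 61.8 FPKM. The shares of the DMSO level for these 3 were 57.4%, 51.9% and 56.1%. Hsd17b7, a keto-reductase, was at 61.8% and the desaturase Sc5d at 49.3%. Tm7sf2, a sterol reductase, kept the largest share of the 21, 83.6%, with 16.9 and 18.1 FPKM in DMSO and 16.1 and 13.1 FPKM in PFI-3. It was also the only one of the 21 with both GM values higher in PFI-3 than in DMSO, 4.14 and 3.62 against 2.12 and 2.52 FPKM.

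Genes of sterol sensing and transport were also lower with PFI-3 at 24 h. Insig1, the sterol-sensing brake on SREBP release and itself an SREBP target, read 8.14 and 25.2 FPKM in GM, 106 and 111 at 24 h and 32.3 and 31.6 at 48 h in DMSO, and 5.84 and 10.8 FPKM in GM, 59.3 and 56.7 at 24 h and 27.4 and 26.6 at 48 h in PFI-3. Stard4, a cytosolic carrier of sterols, was at 71.9% of its DMSO level at 24 h. It read 4.16 and 9.02 FPKM in GM, 19.4 and 19.6 at 24 h and 5.76 and 6.15 at 48 h in DMSO, and 4.47 and 6.93 FPKM in GM, 14.4 and 13.7 at 24 h and 7.96 and 6.98 at 48 h in PFI-3.

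Summed over the 21 genes, FPKM was 328 and 668.5 in GM, 2030.5 and 1996 at 24 h and 751.9 and 778.6 at 48 h in DMSO. The PFI-3 sums were 271.6 and 406.2 in GM, 1159 and 1139 at 24 h and 731 and 737.6 at 48 h. The 2 GM replicates differ: in DMSO, library B exceeded library A in 111 of the 127 genes, with a median B to A ratio of 1.55 (2.1 over the 21 cholesterol genes), against 1.05 over all genes above the FPKM minimum. In PFI-3, B exceeded A in 102 genes, with a median ratio of 1.4 (1.51 over the 21), against 0.994.

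Listed genes missed the rule in different ways in DMSO. Srebf2, which encodes SREBP2, read 191 and 192 FPKM at 24 h and 155 and 147 FPKM at 48 h in DMSO, a ratio of 1.24. Dhcr7 was as high at 48 h (49.1 and 45.9 FPKM) as at 24 h (47.2 and 46.8 FPKM), and Ebp varied only between 27.7 and 35.7 FPKM over the 6 DMSO libraries. Fasn, Scd1 and Scd2, of fatty acid synthesis and desaturation, came just short with ratios of 1.39, 1.41 and 1.43. Me1, malic enzyme, was no higher at 24 h (37.2 and 35.3 FPKM) than in GM (36.97 and 42.7 FPKM). Pnpla3 had a ratio of 3 but read 0.45 and 0.52 FPKM at 24 h, under the minimum. With PFI-3, Scd1, Scd2 and Dhcr7 stood at 39.6%, 42.2% and 48.0% of DMSO at 24 h and at 43.9%, 48.0% and 56.2% at 48 h. Fasn, Srebf2 and Ebp stood at 58.2%, 76.6% and 76.6% and then at 96.0%, 96.5% and 90.3%, and Me1 at 118% and 162%. The rule required lower 48 h values in DMSO, so 48 h shares of its members need not hold for other lipid genes. These genes are named after their values were seen.

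The fatty acid genes among the 127 lay a median of 1.9 times above their GM level at 24 h in DMSO, and the cholesterol genes 4.26 times. Fads2, a desaturase of polyunsaturated fatty acids, read 49.4 and 75.1 FPKM in GM, 196 and 202 at 24 h and 73.7 and 69.3 at 48 h in DMSO, and 46.8 and 60.9 FPKM in GM, 103 and 104 at 24 h and 65.1 and 65.1 at 48 h in PFI-3. Acly, which supplies cytosolic acetyl-CoA, read 105 and 106 FPKM at 24 h in DMSO and 68.5 and 66.03 FPKM in PFI-3. The neighbouring desaturase Fads1 was at 62.3% of its DMSO level at 24 h, and Elovl6, a fatty acid elongase, at 65.3%. Acaca, acetyl-CoA carboxylase, read 18.8 and 21.1 FPKM in GM, 34.7 and 32.3 at 24 h and 15.3 and 14.8 at 48 h in DMSO but 18.1 and 16.8 FPKM in GM, 16.9 and 17.2 at 24 h and 13.5 and 12.4 at 48 h in PFI-3, where the GM and 24 h values overlapped. Idh1, a cytosolic source of NADPH that is on neither list, had close to equal 24 h levels, 129.7 and 127 FPKM in DMSO and 125 and 127 FPKM in PFI-3.

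Whether the peak recurs where it was not selected was tested in the 6 PFI-3 libraries, which the rule did not use. The edgeR quasi-likelihood test was fitted to all 12266 genes that passed edgeR's low-count filter there, and a gene was called at a Benjamini-Hochberg adjusted p under 0.05. Of the 127 genes 126 passed the filter, and Cpa1, a carboxypeptidase missing from all 4 GM tables, did not. From GM to 24 h, 109 members rose, against 30.2% of all genes tested, and 1 fell (Vav3), against 30.6%. The median log2 fold change was 1.55, against 0.005 over all genes tested. The count that rose was 109 without GM replicate A of the PFI-3 libraries and 111 without B. Of the 21 cholesterol list members 20 rose, and of the 5 fatty acid list members 4 rose, all but Acaca (log2 fold change -0.06 (SE 0.07, adjusted p = 0.47)). Insig1 rose by 2.76 (SE 0.20, adjusted p = 6.24e-06) on the log2 scale, Hmgcs1 by 2.44 (SE 0.19, adjusted p = 7.88e-06) and Fdps by 2.12 (SE 0.15, adjusted p = 5.15e-06).

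From 24 h to 48 h in PFI-3 cells, 63 members fell, against 12.0% of all genes tested, and 1 rose, against 15.0%. The gene that rose was Tg, thyroglobulin, named here after its values were seen. The median log2 change was -0.43, against -0.002 over all genes tested. Of the cholesterol list members 16 fell, and Idi1, Nsdhl, Cyp51, Mvd and Pmvk did not pass the test. All 5 fatty acid list members fell. Insig1 changed by -1.04 (SE 0.18, adjusted p = 0.00341) on the log2 scale, Tm7sf2 by -1.01 (SE 0.18, adjusted p = 0.00315) and Hmgcs1 by -0.71 (SE 0.17, adjusted p = 0.0162). This count depends on the replication: without any 1 of the 24 h or 48 h PFI-3 libraries it was 17 to 24, and without either GM PFI-3 library it was 90. This comparison and that from GM to 24 h share the 24 h libraries.

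One contrast of 24 h with the mean of GM and 48 h summarises both. It was positive and called for 104 of the 126 members, against 18.9% of all genes tested. None was called negative by edgeR, against 18.5%, also none at an unadjusted p under 0.05, and none by DESeq2 or limma. The median was 1.05 on the log2 scale, against 0.002 over all genes. All 21 cholesterol list members were called, from 0.55 (Sc5d) to 1.90 (Insig1), and 4 of the 5 fatty acid list members, where Acaca reached 0.14 (SE 0.06, adjusted p = 0.116). Among the 100 tested members on neither list, 79 were called, with a median of 1.02. Over the whole cholesterol list, the 3 genes left out by the rule included, 23 of 24 were called positive. For Srebf2 and Dhcr7 this was no fall after 24 h. From 24 h to 48 h in PFI-3 cells, Srebf2 changed by 0.05 (SE 0.11, adjusted p = 0.775) and Dhcr7 rose by 0.30 (SE 0.10, adjusted p = 0.0463) by edgeR.

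**Figure D2:**
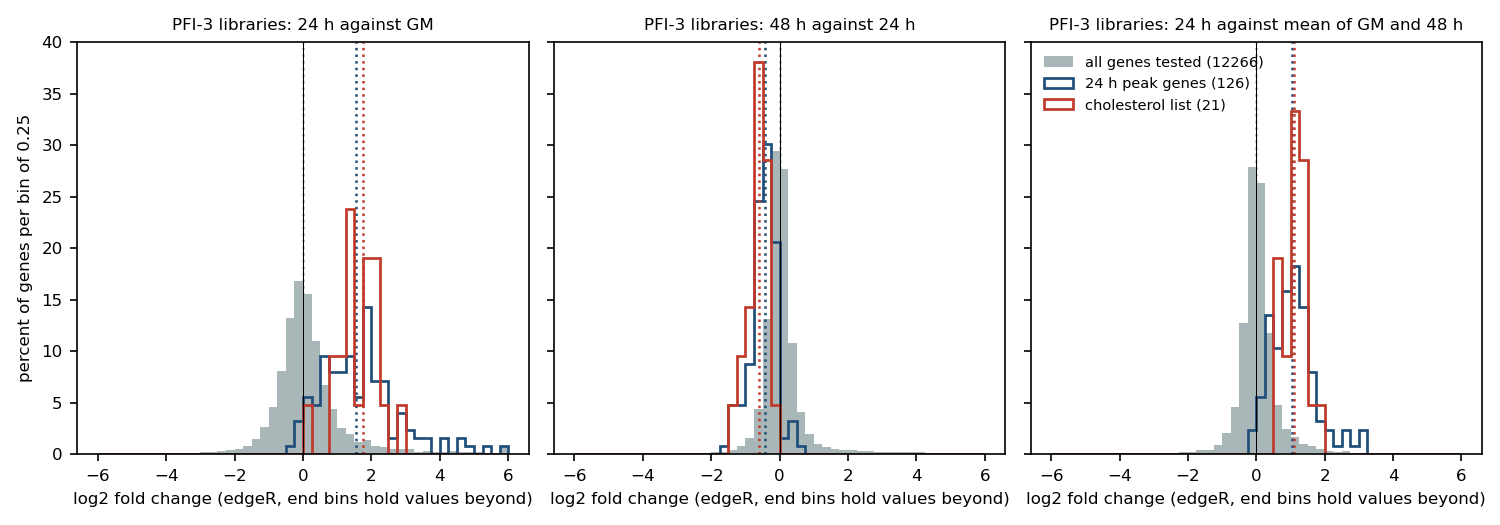
Log2 fold changes within the 6 PFI-3 libraries (x axis) as percent of genes per bin of 0.25 (y axis) for all 12266 genes tested, the 126 tested 24 h peak genes and the 21 cholesterol list members, with dotted medians. The peak genes sit to the right of all genes from GM to 24 h (median 1.55), to the left from 24 h to 48 h (median -0.43) and to the right for 24 h against the mean of both (median 1.05).

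A positive contrast does not place 24 h above both other stages. Counted directly, 113 of the 127 genes reached FPKM 1 in both 24 h PFI-3 libraries, and in 103 of these both 24 h values exceeded all 4 other PFI-3 values, against 18.0% of the 10868 genes that reached the minimum there. The full factor of 1.5 was met by 30, against 0.718%, and a factor of 2 by 7, against 0.12%. The 30 include 9 cholesterol list members (among them Insig1, Hsd17b7, Stard4, Sqle, Hmgcs1, Msmo1, Tm7sf2 and Lss), Fads2, and Car2, Cdhr1, Cxcl12, Idh1, Gulp1 and Col18a1. By group means, 117 of the 127 were highest at 24 h in PFI-3 cells, 4 in GM and 6 at 48 h.

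Over the cholesterol genes the peak was flatter in PFI-3 cells, more so against 48 h than against GM. Their median 24 h level was 4.26 times the GM level in DMSO (range 1.98 to 7.54) and 3.43 times in PFI-3 (1.2 to 6.95). The median 24 h level was 2.92 times the 48 h level in DMSO (1.68 to 3.73) and 1.57 times in PFI-3 (1.18 to 2.49). The DMSO folds chose the genes, so the difference between the treatments is a description and carries no test.

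The same holds for PFI-3 against DMSO within a stage, since the DMSO values chose the genes. At 24 h, 78 of the 127 genes had both PFI-3 values below both DMSO values and 33 had both above, beside 29.3% and 42.9% of 11267 genes with FPKM of at least 1 in any 24 h library. All 21 cholesterol genes were below, at a median of 57.4% of the DMSO level (range 39.7% to 83.6%), and all 5 fatty acid genes, at a median of 62.3%. The summed fibroblast markers stood at 221 to 229 FPKM in PFI-3 and 433 to 442 FPKM in DMSO at that stage. The myotube markers summed to 769 to 777 FPKM in PFI-3 and 1787 to 1796 in DMSO, and the myoblast markers to 748.5 to 765 and 1018 to 1028. The part of any of these marker differences in the values of the 127 genes was not tested. At 48 h, 28 of the 127 were below and 75 above, beside 24.9% and 49.3%. The cholesterol genes were then at a median of 98.5%, 10 below and 9 above. In GM 22 were below and 17 above, beside 13.8% and 33.4%, and the cholesterol genes had a median of 68.6%, 2 of them below and 1 above without overlap. The GM replicates differ, so a count without overlap can miss a difference there. Summed over the 21 genes, replicate A read 271.6 FPKM in PFI-3 and 328 in DMSO, and replicate B 406.2 and 668.5. Whether the letters pair GM libraries across treatments was not tested.

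**Figure D3:**
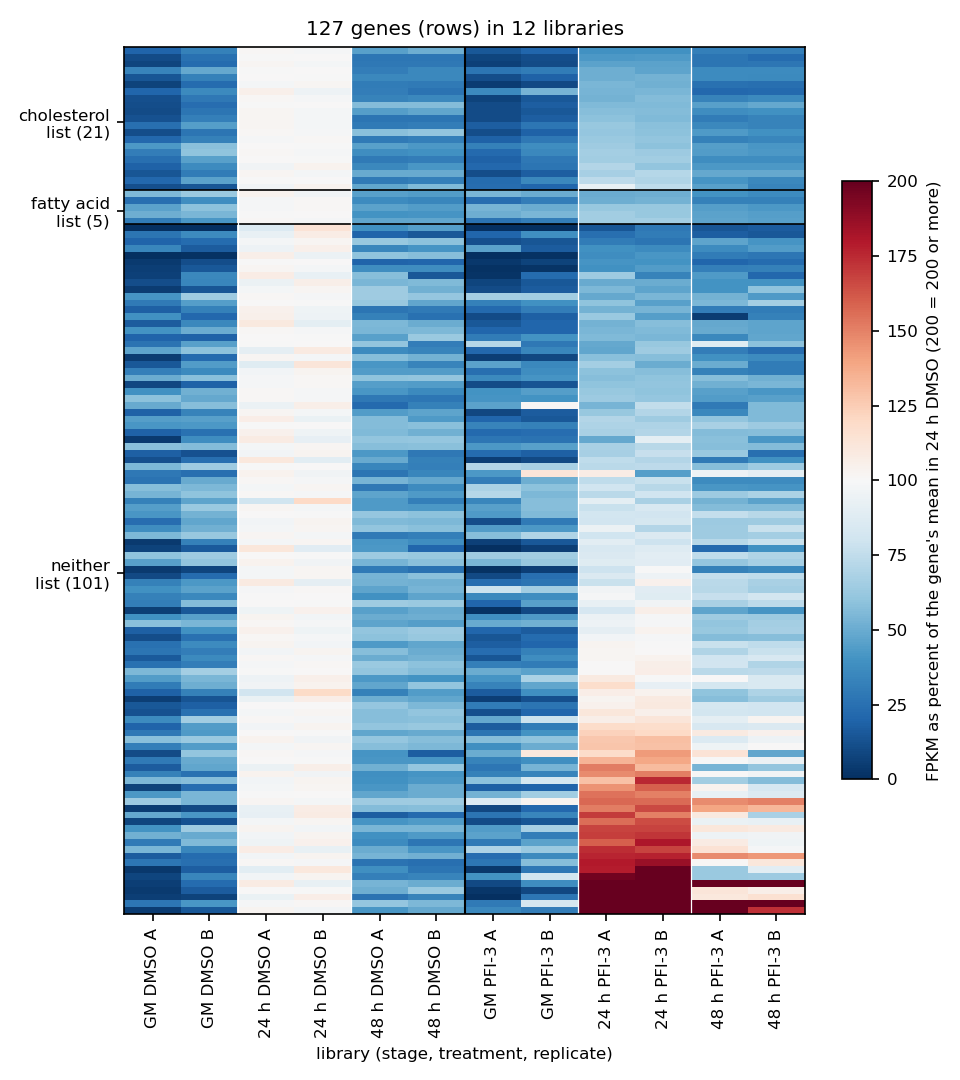
FPKM of the 127 genes (rows, grouped by list and ordered by their 24 h share) in the 12 libraries (columns), as percent of each gene's mean in the 24 h DMSO libraries. In the 24 h PFI-3 columns all 26 lipid genes are below 100, while the 101 genes on neither list run from 21.3% to 285% on average.

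The 101 genes on neither lipid list were lower in level and mixed in direction. Their median 24 h DMSO mean was 8.25 FPKM, against 90.3 for the cholesterol genes. At 24 h 52 of the 101 were below and 33 above DMSO without overlap, beside 29.3% and 42.9% of 11267 expressed genes, at a median of 89.5%. At 48 h they were at a median of 132%, with 15 below and 65 above, beside 24.9% and 49.3%. By the annotation in the deposited tables, 21 of the 127 genes belong to the extracellular space (16.5%, against 4.4% of genes above the FPKM minimum), 8 to angiogenesis (6.3% against 1.18%) and 5 to homophilic cell adhesion (3.94% against 0.324%), while 12 belong to cholesterol biosynthesis (9.45% against 0.167%). These terms were picked after their shares were seen. Of the 21 extracellular genes, 17 were called positive in the 24 h contrast of the PFI-3 libraries, against 18.9% of all genes tested. At 24 h 9 were above and 9 below DMSO, beside 42.9% and 29.3% of expressed genes, so the number above is no larger a share than over all genes.

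**Figure D4:**
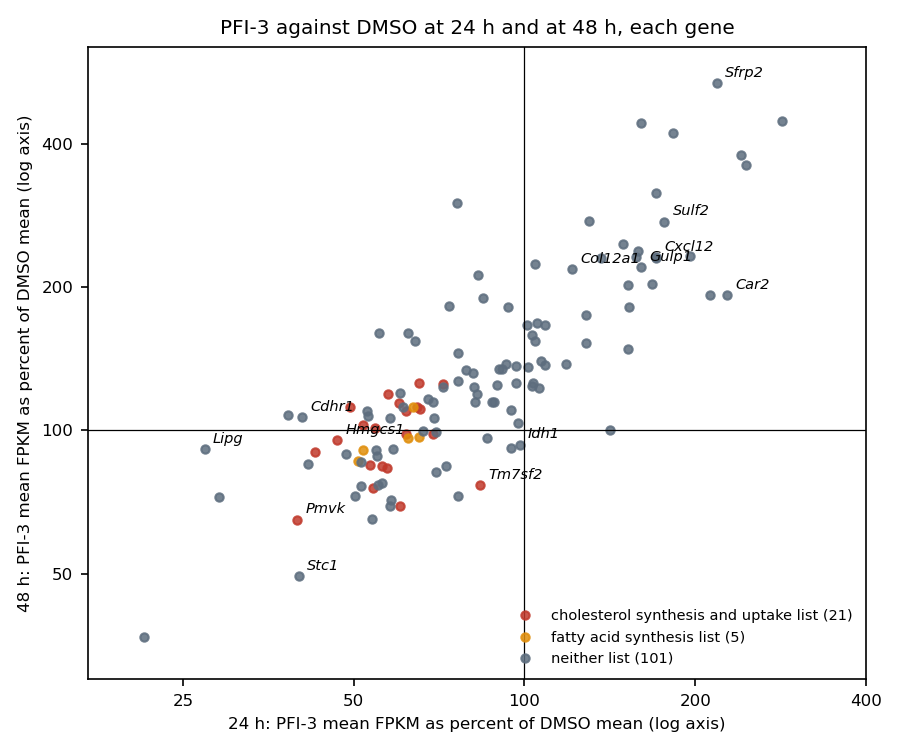
Mean PFI-3 FPKM as percent of mean DMSO FPKM at 24 h (x axis) and 48 h (y axis), both on log axes, for each of the 127 genes. The lipid genes among the 127 lie left of 100 at 24 h and from 64.9% to 126% at 48 h, with a median of 97.5%. The other genes spread on both sides of 100 at 24 h, up to 285% (Cd74), and reach 538% (Sfrp2) at 48 h.

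Several secreted or matrix genes of this group stood lower in PFI-3 cells at 24 h. Col18a1, the collagen whose fragment is endostatin, read 52.96 and 61.4 FPKM in GM, 163 and 171 at 24 h and 74.4 and 73.4 at 48 h in DMSO, and 41.5 and 62.8 FPKM in GM, 98.9 and 95.9 at 24 h and 54.8 and 50.6 at 48 h in PFI-3. Within the PFI-3 libraries it rose by 0.87 (SE 0.16, adjusted p = 0.00121) on the log2 scale from GM and changed by -0.82 (SE 0.16, adjusted p = 0.00479) to 48 h. Stc1, the secreted glycoprotein stanniocalcin, was near 0 in GM, 0.02 and 0.12 FPKM in DMSO and 0.02 and 0.14 FPKM in PFI-3. It read 12.3 and 10.97 FPKM at 24 h in DMSO and 4.44 and 4.85 FPKM in PFI-3, and was also lower at 48 h (3.48 and 3.25 against 6.96 and 6.67 FPKM). Lipg, endothelial lipase, read 1.46 and 1.99 FPKM in GM, 4.94 and 5.75 at 24 h and 1.07 and 0.82 at 48 h in DMSO, whereas its PFI-3 values, 1.1 and 2.06 FPKM in GM, 1.33 and 1.59 at 24 h and 0.92 and 0.81 at 48 h, showed no 24 h maximum (contrast 0.27 (SE 0.26, adjusted p = 0.445)).

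Among intracellular and membrane genes, Cbr2 was among the highest and Cdhr1 was the most peaked, while Crabp2 had a selection ratio of only 1.70. Cbr2, a carbonyl reductase, read 27.5 and 60.2 FPKM in GM, 305 and 314 at 24 h and 138 and 135 at 48 h in DMSO, and 32.97 and 42.4 FPKM in GM, 185 and 188 at 24 h and 161 and 168 at 48 h in PFI-3. In PFI-3 cells it rose to 24 h by 2.27 (SE 0.11, adjusted p = 4.57e-07) and its change to 48 h did not pass (-0.12 (SE 0.10, adjusted p = 0.4)). Cdhr1, a cadherin-related photoreceptor protein, had the largest selection ratio of all, 4.79, with 1.27 and 3.34 FPKM in GM, 29.5 and 29.7 at 24 h and 5.88 and 6.16 at 48 h in DMSO, and 0.98 and 2.1 FPKM in GM, 12.1 and 11.9 at 24 h and 6.12 and 6.74 at 48 h in PFI-3. Crabp2, which carries retinoic acid to the nucleus, read 2.86 and 11.9 FPKM in GM, 55.6 and 53.1 at 24 h and 31.3 and 28.4 at 48 h in DMSO, and 3.21 and 5.08 FPKM in GM, 31.7 and 31.2 at 24 h and 21.4 and 19.98 at 48 h in PFI-3. All 3 were lower with PFI-3 at 24 h in both libraries, and all 3 were called in the 24 h contrast (Cdhr1 1.88 (SE 0.17, adjusted p = 8.95e-05), Crabp2 1.71 (SE 0.14, adjusted p = 4.43e-05), Cbr2 1.195 (SE 0.08, adjusted p = 2.38e-05)).

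Another set was higher in PFI-3 cells at 24 h and stayed so at 48 h. Sulf2, an extracellular heparan sulfate 6-O-endosulfatase, read 17.5 and 24.4 FPKM in GM, 102 and 109 at 24 h and 56.4 and 55.2 at 48 h in DMSO, and 24.8 and 38.4 FPKM in GM, 186 and 187 at 24 h and 156 and 151 at 48 h in PFI-3. Cxcl12, the chemokine that signals through CXCR4, read 37.3 and 35.5 FPKM in GM, 69.4 and 73.7 at 24 h and 28.3 and 30.8 at 48 h in DMSO, and 33.5 and 22.04 FPKM in GM, 121 and 123 at 24 h and 67.7 and 68.9 at 48 h in PFI-3. Ptn, the heparin-binding growth factor pleiotrophin, read 2.08 and 3.76 FPKM in GM, 35.9 and 41.8 at 24 h and 22.03 and 22.4 at 48 h in DMSO, and 3.41 and 8.41 FPKM in GM, 58.7 and 64.6 at 24 h and 54.1 and 51.6 at 48 h in PFI-3. For each of the 3, both PFI-3 values exceeded both DMSO values at 24 h and at 48 h.

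Gulp1, an engulfment adaptor protein, read 2.43 and 3.83 FPKM in GM, 28.8 and 30.1 at 24 h and 12.2 and 12.7 at 48 h in DMSO, and 3.04 and 4.37 FPKM in GM, 45.9 and 48.8 at 24 h and 27.5 and 27.3 at 48 h in PFI-3. Within the PFI-3 libraries Gulp1 rose by 3.64 (SE 0.13, adjusted p = 1.01e-07) from GM and changed by -0.73 (SE 0.11, adjusted p = 0.00141) to 48 h, and Cxcl12 rose by 1.896 (SE 0.14, adjusted p = 5.26e-06) and changed by -0.86 (SE 0.13, adjusted p = 0.00162). The 48 h against 24 h differences of Sulf2 (-0.22 (SE 0.15, adjusted p = 0.333)) and Ptn (-0.16 (SE 0.22, adjusted p = 0.63)) did not pass the test. Col12a1, a fibril-associated collagen, read 90.6 and 90.3 FPKM at 24 h and 43.6 and 44.6 at 48 h in DMSO, against 111 and 108 and 98.3 and 93.98 FPKM in PFI-3.

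**Figure D5:**
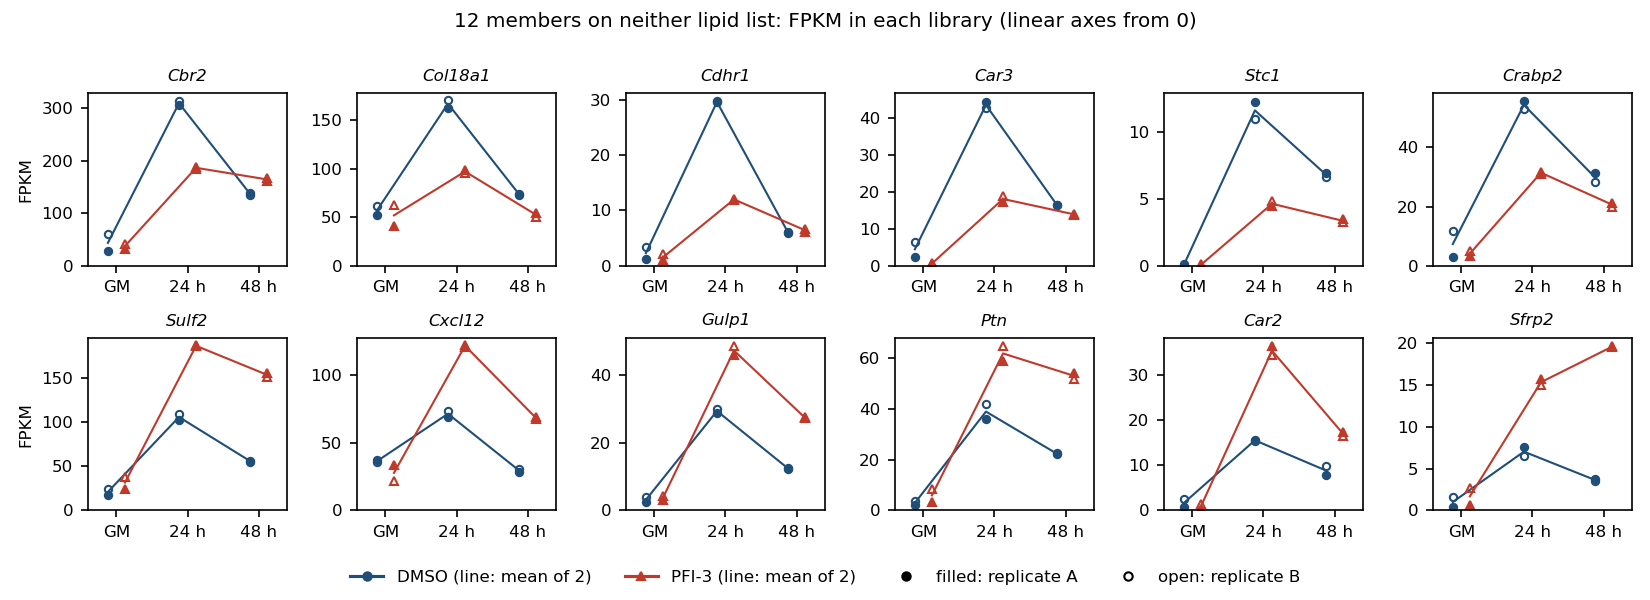
FPKM (linear axis from 0) in each library of 12 genes on neither lipid list, with lines through the means of 2. In the upper row (Cbr2 to Crabp2) both PFI-3 points at 24 h lie below both DMSO points; in the lower row (Sulf2 to Sfrp2) they lie above.

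Sfrp2, a secreted frizzled-related antagonist of Wnt signals, stood at 538% of its DMSO level at 48 h. It read 0.42 and 1.6 FPKM in GM, 7.59 and 6.49 at 24 h and 3.76 and 3.53 at 48 h in DMSO, and 0.7 and 2.67 FPKM in GM, 15.7 and 14.98 at 24 h and 19.5 and 19.7 at 48 h in PFI-3, so its highest PFI-3 values were at 48 h. The rise from GM to 24 h in PFI-3 was called (3.14 (SE 0.33, adjusted p = 4.74e-05)), and the further change to 48 h was not (0.41 (SE 0.24, adjusted p = 0.242)). Vav3, a guanine nucleotide exchange factor for small GTPases, read 2.63 and 4.11 FPKM in GM, 6.45 and 6.31 at 24 h and 4.1 and 3.92 at 48 h in DMSO, but 4.22 and 4.18 FPKM in GM, 3.13 and 3.45 at 24 h and 3.37 and 2.75 at 48 h in PFI-3. Its fall from GM to 24 h in PFI-3 (-0.36 (SE 0.13, adjusted p = 0.0399)) was not called by DESeq2, by limma, in the fit of all 12 libraries or with a replicate block.

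Among the 127, 8 pairs of genes had annotated spans within 100 kb of each other, a feature looked for after the genes were known. The share of such pairs among all genes was not computed, so the count does not show that the members lie close together. On chromosome 3, the carbonic anhydrases Car3 (14863538 to 14872381) and Car2 (14886269 to 14900770) lie 13.9 kb apart. Car2 read 0.71 and 2.59 FPKM in GM, 15.6 and 15.5 at 24 h and 7.95 and 9.76 at 48 h in DMSO, and 0.37 and 1.4 FPKM in GM, 36.5 and 34.5 at 24 h and 17.5 and 16.5 at 48 h in PFI-3, whereas Car3 read 2.52 and 6.46 FPKM in GM, 44.3 and 42.5 at 24 h and 16.3 and 16.5 at 48 h in DMSO, and 0.46 and 0.8 FPKM in GM, 17.1 and 19 at 24 h and 13.7 and 14.1 at 48 h in PFI-3. These neighbours stood apart with PFI-3 at 24 h, at 227.9% and 41.6% of DMSO, although both were called in the PFI-3 24 h contrast (Car2 3.15 (SE 0.18, adjusted p = 8.10e-06), Car3 2.55 (SE 0.14, adjusted p = 6.55e-06)). On chromosome 14, Cdhr1 and 2610528A11Rik, which encodes the ligand of GPR15, lie 3.79 kb apart. 2610528A11Rik read 0.76 and 1.51 FPKM in GM, 18.1 and 18.7 at 24 h and 5.41 and 4.6 at 48 h in DMSO, and 0.22 and 1.08 FPKM in GM, 14.6 and 18.4 at 24 h and 5.9 and 6.55 at 48 h in PFI-3, and its 24 h contrast was 2.96 (SE 0.27, adjusted p = 9.56e-05). Other pairs included Fads2 with Fads1, Tg with Wisp1, Gstm7 with Gstm2, Tmem176b with Tmem176a and Pcdhgc4 with Pcdhgc5. The spans of the last 2 pairs overlap, and whether the counting used strand is not given in the sources used here, so their reads may not be told apart.

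The weakest 24 h contrasts in the PFI-3 libraries, among members with a mean of at least 5 FPKM at 24 h in DMSO, included Vav3 (-0.16 (SE 0.12, adjusted p = 0.32)), Acaca and Lipg. Neil3, a DNA glycosylase, read 10.5 and 12.3 FPKM in GM, 19.1 and 19.2 at 24 h and 6.67 and 6.09 at 48 h in DMSO, and 13.6 and 12.9 FPKM in GM, 14.01 and 14.2 at 24 h and 10.9 and 12.4 at 48 h in PFI-3, with a contrast of 0.13 (SE 0.08, adjusted p = 0.231). Nusap1, a spindle-associated protein, read 19.9 and 22.4 FPKM in GM, 36.9 and 35.2 at 24 h and 10.6 and 11.5 at 48 h in DMSO, and 20.7 and 25.1 FPKM in GM, 28.8 and 30.7 at 24 h and 23.2 and 23.8 at 48 h in PFI-3, with a contrast of 0.31 (SE 0.08, adjusted p = 0.0179). At 48 h both PFI-3 values of each lay above both DMSO values, at 182.8% and 212.0% of the DMSO level. The contrast was 0.19 (SE 0.11, adjusted p = 0.213) for Cntln, a centriolar protein, 0.299 (SE 0.08, adjusted p = 0.0173) for the RNA-editing enzyme Adarb1 and 0.31 (SE 0.06, adjusted p = 0.004) for the transcription factor Rfx7. Acly (0.33 (SE 0.05, adjusted p = 0.00177)) and Fads1 (0.34 (SE 0.06, adjusted p = 0.00187)) completed the 10 lowest.

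At the threshold of the rule, the members just inside were Iqcd (ratio 1.5), Tspyl4 (1.503), H2-K1 (1.515), whose counts are uncertain, and Mgam (1.516), and the genes just outside were Pik3r3, Tapbp and Tnfaip8l1 (1.498 each). Of these 4, 3 are low: Iqcd read 1.3 and 1.11 FPKM at 24 h in DMSO, Tspyl4 2.48 and 2.27 FPKM and Mgam 1.44 and 1.5 FPKM, whereas H2-K1 read 63.01 and 60.6 FPKM. In all, 41 of the 127 genes had a 24 h DMSO mean under 5 FPKM. The counts of 8 members were mostly not whole, as happens when reads are shared with a similar gene, and these are uncertain. The 5 highest of them were Acat2, H2-K1, Utp14b, Car5b and Raet1d. Acat2, an acetyl-CoA acetyltransferase that is on neither list, read 20.4 and 36.7 FPKM in GM, 118 and 109 at 24 h and 31.01 and 33.5 at 48 h in DMSO, and 25.1 and 34.96 FPKM in GM, 59.7 and 60.3 at 24 h and 34.7 and 34.4 at 48 h in PFI-3. H2-K1, a class I histocompatibility antigen, was at 157.2% of DMSO at 24 h, and Utp14b, Car5b and Raet1d at 54.7%, 94.5% and 64.2%.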

How the data were processed

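RNA of 12 C2C12 libraries was sequenced, and 1 table per library was deposited. Per the file headers, each holds an expected count and an FPKM value per gene, made by the authors' sequencing provider. HISAT, StringTie, Cufflinks, Bowtie, RSEM, DESeq2 and the build mm10 are named per the submitters' processing notes, with no role or version given. A gene missing from a table was taken as 0: in 6963 cases a gene was listed in 1 replicate of a group only, with a median count of 1 there. Groups and replicate letters come from sample titles.

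Members were found from deposited FPKM in the 6 DMSO libraries, so PFI-3 against DMSO was described and not tested. Expected counts of the 6 PFI-3 libraries were rounded and tested with edgeR 4.0.16 (R 4.3.3; quasi-likelihood, TMM scaling, filterByExpr, 3 groups of 2). P-values were adjusted by Benjamini-Hochberg over 12266 genes. Contrasts are log2 fold changes with standard errors (SE). Each SE was derived from the test, as the absolute log2 fold change divided by the square root of the F statistic. Percentages of DMSO compare mean FPKM. Median log2 ratios add a pseudocount of 0.1.

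Genes named were the 12 highest at 24 h in DMSO, the 12 with the largest ratio, all on a list, the 10 highest and 10 lowest PFI-3 contrasts (ratio and contrast parts: at least 5 FPKM), 3 on each side of the threshold and 5 uncertain ones; others are said to be chosen after their values were seen, or are only counted or listed. The values of 4 cholesterol list members are not reported here singly. Members and lists were chosen with earlier results of these data known. A list of hosts of small RNAs had no gene in the files. On simulated counts of 12266 genes with 200 changed 2-fold, edgeR recovered 87.5% from GM to 24 h with 6.9% of calls false, and 88.5% with 9.2% false from 24 h to 48 h. Alternatives were DESeq2 1.42.0, limma 3.58.1 on log2(FPKM + 1) and log2(FPKM + 0.1), other size factors and filters, all 12 libraries in one model, a replicate block, other factors, and leaving out each library. Promoter windows and gene positions are RefSeq's for GRCm38.p6, the assembly mm10 denotes. Windows matched 95 of 127 members.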

Additional observations from a re-analysis of the deposited data

Results flagged for a closer look

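In 3 genes, both PFI-3 replicates moved opposite to both DMSO replicates over the same step, and the difference between the treatments was not tested. Sfrp2 was 1.28 times as high at 48 h as at 24 h in PFI-3 cells (15.7 and 15.0 FPKM at 24 h, 19.5 and 19.7 FPKM at 48 h), against 0.518 times in DMSO. Vav3 was 1.28 times as high in GM as at 24 h in PFI-3 cells (4.22 and 4.18 FPKM against 3.13 and 3.45 FPKM), against 0.528 times in DMSO. Tg was 1.52 times as high at 48 h as at 24 h in PFI-3 cells (0.59 and 0.53 FPKM, then 0.91 and 0.79 FPKM), against 0.603 times in DMSO. The DMSO direction is set in each case by how the genes were chosen, and Tg stayed under 2 FPKM in all 12 libraries.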

How the results depend on the processing

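With 2 libraries a group, calls from 24 h to 48 h depend most on replication. The size of the selected group depends on its factor: a factor of 2 gave 41 genes (14 of them on the cholesterol list), 1.2 gave 463 (22), and TMM-scaled CPM gave 132, 117 of them shared. Leaving out 1 DMSO library gave 130 to 196, the most without GM replicate B. In the PFI-3 libraries, the rule was met by 103 members at factor 1 and 7 at factor 2 (30 to 41 with 1 library left out).

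From GM to 24 h, the 1 member called lower became 0 with DESeq2, with no filter, with either limma scale, with all 12 libraries and with the replicate block (0 to 2 with 1 library left out); an unadjusted p under 0.05 found 0 by DESeq2 and 1 by limma. From 24 h to 48 h, the 1 member called higher became 0 with DESeq2, no filter, either limma scale and the replicate block (0 to 2 with 1 library left out; 1 at an unadjusted p under 0.05 by each tool). Members called lower there numbered 17 to 90, and genes called 1406 to 5688 (3318 in full). Genes called in the 24 h contrast numbered 1864 to 6631 (4588 in full), and members called 82 to 112.

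The replicate letters did not pair the PFI-3 libraries: the A minus B differences correlated by 0, -0.005 and 0.06 between stages. With a replicate block, 108 members rose to 24 h, 63 fell to 48 h and 105 were called in the 24 h contrast. Among members with mostly whole counts, an alternative added after the data were seen, these were 102, 62 and 97.

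With CPM, and relative to the median of all genes, the median log2 ratio of PFI-3 to DMSO moved at 24 h from -0.38 to -0.42 and -0.43 (all members), from -0.80 to -0.85 and -0.85 (cholesterol) and from -0.16 to -0.21 and -0.21 (neither list). At 48 h it moved from 0.22 to 0.16 and 0.13, from -0.02 to -0.11 and -0.12, and from 0.38 to 0.32 and 0.28. In GM the genes on neither list turned from 0.06 to -0.03 and -0.02.

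Over 14 settings, the values of single named genes kept direction and call 701 times from GM to 24 h, 592 times from 24 h to 48 h and 700 times in the 24 h contrast. The call was lost 23, 85 and 21 times, gained 2, 41 and 4 times, and the sign changed 2, 10 and 3 times. Single genes that changed sign with 1 library left out ranged, from GM to 24 h, from -0.54 to 0.38 (Lipg) and -0.7 to 0.45 (Raet1d). From 24 h to 48 h they ranged from -0.28 to 0.28 (Mgam), -0.2 to 0.1 (Vav3), -0.1 to 0.04 (Adarb1) and -0.8 to 0.07 (Iqcd), and in the 24 h contrast from -0.12 to 0.5 (Raet1d). Mgam also read -0.02 and -0.05 with limma and -0.01 with 12 libraries. The cause was not tested.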

Other observations

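The members farthest from DMSO at 24 h were picked out after their values were seen and are given as values. Cd74, the invariant chain of class II histocompatibility antigens, had the highest share of its DMSO level at 284.9%. It read 0.06 and 0.19 FPKM in GM, 1.26 and 1.19 at 24 h and 0.51 and 0.6 at 48 h in DMSO, and 0.44 and 0.38 FPKM in GM, 3.01 and 3.97 at 24 h and 2.84 and 2.12 at 48 h in PFI-3. Gstm2, a glutathione transferase, read 5.49 and 8.33 FPKM in GM, 19.8 and 20.2 at 24 h and 12.2 and 11.1 at 48 h in DMSO, and 5.85 and 16.5 FPKM in GM, 51.8 and 46.3 at 24 h and 41.8 and 42.7 at 48 h in PFI-3. Tgm5, a transglutaminase, read 0.12 and 0.15 FPKM in GM, 1.81 and 2.07 at 24 h and 0.51 and 0.64 at 48 h in DMSO, and 0 and 0.54 FPKM in GM, 4.8 and 4.56 at 24 h and 2.14 and 2.23 at 48 h in PFI-3. At the other end, Cpa1 was at 21.3% of its DMSO level, with 1.88 and 2.49 FPKM at 24 h in DMSO and 0.31 and 0.62 FPKM in PFI-3.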
